A study of Mus musculus with 2 samples.

Results

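Genes that mark tissue-resident macrophages were followed through single-cell libraries of the mouse mammary gland. The members were 10 genes chosen by symbol as known macrophage markers, Adgre1, Mrc1, Pf4, Cd163, Folr2, Lyve1, Ms4a7, Fcgr1, Cd68 and Apoe, out of 32285 genes in each table. Their unique molecular identifiers (UMIs, each standing for 1 captured transcript) were summed over cells, by cell class and library, and were given as counts per 1000000 UMIs of the class (CPM). A ratio between groups is given on the log2 scale, so that 1 means a doubling.

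Resident macrophages clear dying cells, matrix and lipid from a tissue, and they recognise these cargoes with scavenger, lectin and Fc receptors before breaking them down in lysosomes. In the mammary gland they lie along the ducts and in the stroma, and they take part in ductal branching and in the remodelling of the epithelium. Several of these genes are not exclusive to macrophages. Apoe is also used by other cells that handle lipid, Lyve1 by lymphatic endothelium, and Pf4 by platelets.

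The study asked how the gland changes when macrophages are removed. The library labelled Ctrl came from control mice and the library labelled CL from mice given clodronate liposomes (Clophosome), which kill phagocytes that take them up and which were injected intraperitoneally on repeated alternate days before harvest. Both came from adult wild-type females, 9 to 10 weeks old by the label and 8 to 10 by the protocol, whose glands were digested and sorted for CD31- TER119- cells with CD45+ immune cells included. The number of mice behind each library, what the control mice were injected with, and the proportion in which sorted fractions were joined are not given in the sources used here. The liposomes act on phagocytes of the whole body, so the label does not limit the treatment to the gland. With 1 library per group no test across animals was possible, and the ranges in brackets are exact 95% intervals that cover counting error only. In a sum over all cells, fewer cells of a kind, less RNA per cell and a different proportion of sorted immune cells cannot be told apart.

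The 7217 barcodes with most UMIs in Ctrl and 10555 in CL were examined, and 5929 and 8771 were kept as cells, with medians of 11332 and 10280 UMIs. Myeloid-like cells were named from 14 markers that include no member and no C1q gene. They were then divided by the UMIs of C1qa, C1qb and C1qc, subunits of complement C1q that resident macrophages make. C1q-high cells, with at least 10 such UMIs, numbered 41 in Ctrl (0.692% of cells, 0.497 to 0.937) and 66 in CL (0.752%, 0.582 to 0.956). C1q-low cells numbered 16 in Ctrl (0.270%, 0.154 to 0.438) and 167 in CL (1.90%, 1.63 to 2.21). Among all cells the share of C1q-high cells thus did not differ beyond counting error (log2 ratio 0.12, -0.46 to 0.72), and that of C1q-low cells was higher in CL (2.82, 2.08 to 3.66). T and NK-like cells were also more frequent in CL (3.59% and 8.37%, 1.22). B-like cells numbered 4 and 20 (1.76, 0.18 to 3.77) and neutrophil-like cells 2 and 20 (2.76, 0.72 to 5.90), and the 4 Ctrl cells called B-like also held mast cell markers, at 4478 CPM against 0 in CL. Among the 276 and 1007 immune-like cells, a denominator added after seeing the data, C1q-high cells made up 14.9% in Ctrl (10.9 to 19.6) and 6.55% in CL (5.10 to 8.26), a ratio of -1.18 (-1.76 to -0.58), and C1q-low cells 5.80% and 16.6% (1.52). The direction for C1q-high cells thus depends on the denominator, and the label of CL names the clodronate liposome treatment. All directions below are between the library labelled CL and the library labelled Ctrl, written CL and Ctrl. Close to the dividing value, Ctrl held 0 myeloid-like cells with 5 to 9 C1q UMIs and CL held 15. The libraries had 22 examined barcodes in common, none of them in a myeloid-like cell.

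The members are protein-coding genes with these positions in GRCm38 (GENCODE M21), and UMIs were counted over each gene as a whole. On the plus strand lie Adgre1 (ENSMUSG00000004730, chr17:57358691-57483527), Mrc1 (ENSMUSG00000026712, chr2:14229392-14332057), Pf4 (ENSMUSG00000029373, chr5:90772435-90773383) and Cd163 (ENSMUSG00000008845, chr6:124304656-124330527). On the minus strand lie Folr2 (ENSMUSG00000032725, chr7:101839988-101857194), Lyve1 (ENSMUSG00000030787, chr7:110850607-110863239), Apoe (ENSMUSG00000002985, chr7:19696109-19699188), Ms4a7 (ENSMUSG00000024672, chr19:11321039-11336146), Fcgr1 (ENSMUSG00000015947, chr3:96282909-96293969) and Cd68 (ENSMUSG00000018774, chr11:69664213-69666153). Folr2, Lyve1 and Apoe share chromosome 7.

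Promoter windows, from 250 bases before to 50 bases after the annotated start, were matched in RefSeq (GRCm38.p6) for 8 of the 10 members. Adgre1 and Lyve1 were not matched. Sequences are shown for Pf4 and Mrc1, which had the lowest ratios between the libraries in C1q-high cells among members with at least 20 UMIs there, for Ms4a7, which was close to even in the largest group of those cells, and for Folr2, whose UMIs lay mostly in luminal cells. Pf4 and Mrc1 lie on the plus strand and have 1 listed start each. Ms4a7 and Folr2 lie on the minus strand and have 2 listed starts each, of which the one nearest to the gene's outer end is given. Each is written 5′ to 3′ along its own gene. Capitals mark the letters GAGGAA on either strand, which read TTCCTC on the other. These letters are the purine-rich core that PU.1, the myeloid transcription factor encoded by Spi1, is known to bind.
Pf4, chr5:90772185-90772484: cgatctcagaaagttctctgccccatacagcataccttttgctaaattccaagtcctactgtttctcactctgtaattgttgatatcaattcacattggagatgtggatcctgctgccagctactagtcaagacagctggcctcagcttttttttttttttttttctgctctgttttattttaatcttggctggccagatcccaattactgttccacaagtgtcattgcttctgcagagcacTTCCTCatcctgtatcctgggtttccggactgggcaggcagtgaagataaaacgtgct
Mrc1, chr2:14229164-14229463: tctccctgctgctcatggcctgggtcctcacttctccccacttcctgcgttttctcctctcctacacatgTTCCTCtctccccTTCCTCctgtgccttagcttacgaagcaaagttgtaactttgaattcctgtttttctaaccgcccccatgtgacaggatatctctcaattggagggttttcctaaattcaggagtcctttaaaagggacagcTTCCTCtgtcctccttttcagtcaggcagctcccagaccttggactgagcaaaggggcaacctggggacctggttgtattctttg
Ms4a7, chr19:11336097-11336396: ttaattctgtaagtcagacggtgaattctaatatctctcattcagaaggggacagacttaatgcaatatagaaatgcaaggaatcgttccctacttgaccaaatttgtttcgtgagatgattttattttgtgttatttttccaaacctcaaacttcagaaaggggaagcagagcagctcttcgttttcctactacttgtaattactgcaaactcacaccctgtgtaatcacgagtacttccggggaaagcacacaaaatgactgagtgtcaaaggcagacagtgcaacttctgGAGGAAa
Folr2, chr7:101857141-101857440: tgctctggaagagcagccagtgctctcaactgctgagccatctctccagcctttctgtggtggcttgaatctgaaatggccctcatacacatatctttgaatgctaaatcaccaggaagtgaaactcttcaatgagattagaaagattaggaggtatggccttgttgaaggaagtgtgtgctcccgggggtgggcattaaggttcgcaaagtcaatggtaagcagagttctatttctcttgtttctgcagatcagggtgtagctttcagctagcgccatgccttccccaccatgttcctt
The letters occurred 3 times in the Mrc1 window, once each in those of Pf4 and Ms4a7, and not in that of Folr2. They also occurred in the windows of Fcgr1, Cd68 and Apoe and not in that of Cd163. Of 32851 promoter windows of the same 300 bases in the table, 28.3% held them, and 1 motif was searched. A match describes the letters only.

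The first question was which cells held the members' UMIs. The members fell into groups by where they were found. Adgre1, which encodes F4/80, an adhesion G protein-coupled receptor by which mouse macrophages are sorted, had 133 UMIs in kept Ctrl cells and 347 in CL, of which myeloid-like cells held 97.7% and 97.4%. For Ms4a7, a membrane protein of the MS4A family, that share was 95.5% of 330 UMIs in Ctrl and 97.4% of 495 in CL. For Mrc1, the mannose receptor CD206, it was 94.9% of 79 UMIs and 94.7% of 76. Pf4, which encodes the chemokine CXCL4, had a share of 98.3% (of 240 UMIs) in Ctrl and of 82.4% (of 125 UMIs) in CL. Fcgr1, the high-affinity IgG receptor CD64, had 87.2% of 47 UMIs and 98.6% of 145 there. These 5 genes were thus almost confined to myeloid-like cells, with Pf4 in CL as the loosest of them.

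The other members had most of their UMIs elsewhere. Myeloid-like cells held 14.8% of 1263 Cd68 UMIs in Ctrl and 30.7% of 2148 in CL, Cd68 being a glycoprotein of the lysosomal membrane. They held 16.7% of 41663 UMIs of Apoe, a lipid carrier, in Ctrl and 30.6% of 34308 in CL. They held 13.9% and 6.98% of the 36 and 43 UMIs of Cd163, the scavenger receptor for haemoglobin bound to haptoglobin. The shares were lowest for Folr2, folate receptor beta, at 0.426% of 2115 UMIs in Ctrl and 0.122% of 1639 in CL. Of Lyve1, a hyaluronan receptor, myeloid-like cells held 1 of 15 UMIs in Ctrl and 0 of 32 in CL, and with so few UMIs its place among them was not measurable.

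**Figure D1:**
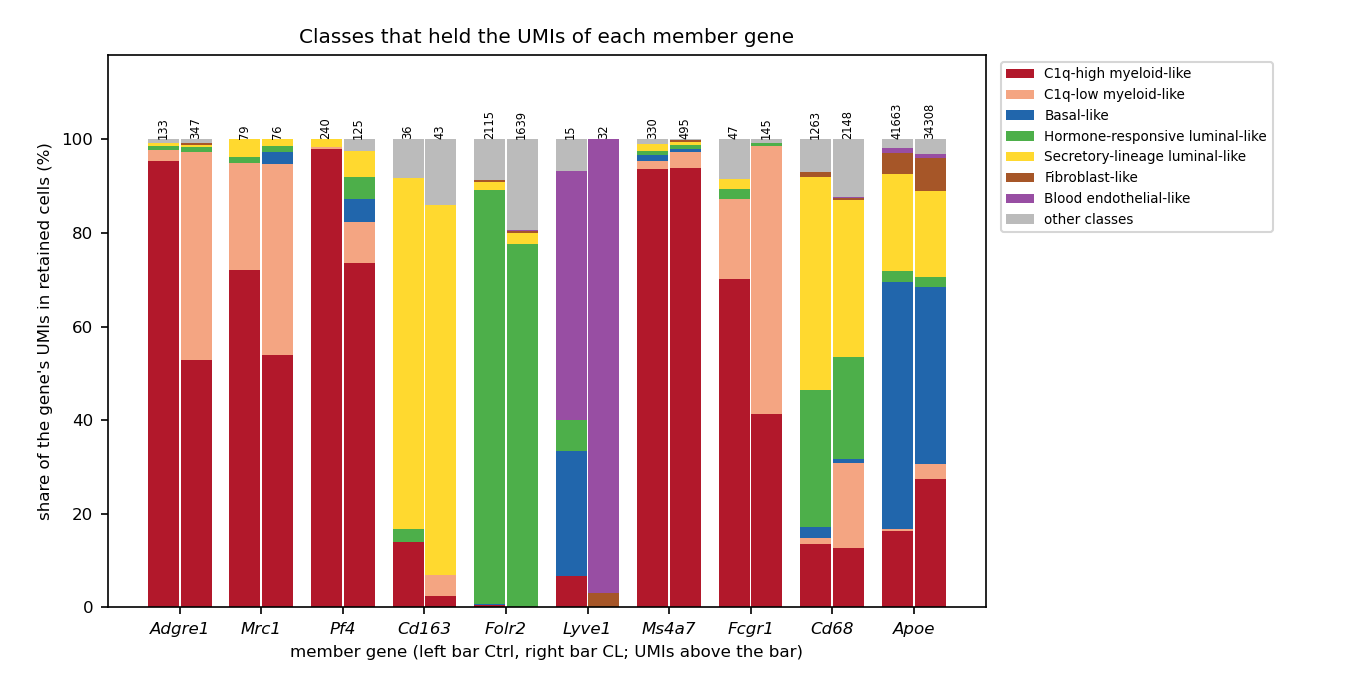
Stacked bars give the share (%) of each member's UMIs in kept cells that lay in each class, left bar Ctrl and right bar CL, with the number of UMIs above. Adgre1, Mrc1, Pf4, Ms4a7 and Fcgr1 are mostly myeloid-like (reds), with more in C1q-low cells in CL. Folr2 is mostly hormone-responsive luminal-like, Lyve1 mostly endothelial-like and Apoe largely basal-like.

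Set against free RNA, the myeloid members stood far above the background in C1q-high cells. Droplets with 100 to 300 UMIs, taken as RNA released into the suspension, held Adgre1 at 0.635 CPM in Ctrl and 1.53 in CL, whereas C1q-high cells held 372 and 246 CPM. Pf4 was at 1.72 and 1.53 CPM in the droplets and at 689 and 124 CPM in C1q-high cells. Ms4a7 was at 1.91 and 2.16 CPM in the droplets, and at 906 and 626 CPM in the cells. In T and NK-like cells, which should lack these genes, Adgre1, Mrc1, Pf4, Ms4a7 and Lyve1 had no UMI in 213 Ctrl and 734 CL cells. Apoe was abundant in the droplets, at 472 CPM in Ctrl and 395 in CL, and reached 31.4 and 25.3 CPM in T and NK-like cells, against 19863 and 12601 CPM in C1q-high cells. Folr2 and Cd68 were at 29.7 and 16.0 CPM in Ctrl droplets and at 20.7 and 16.3 in CL.

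**Figure D2:**
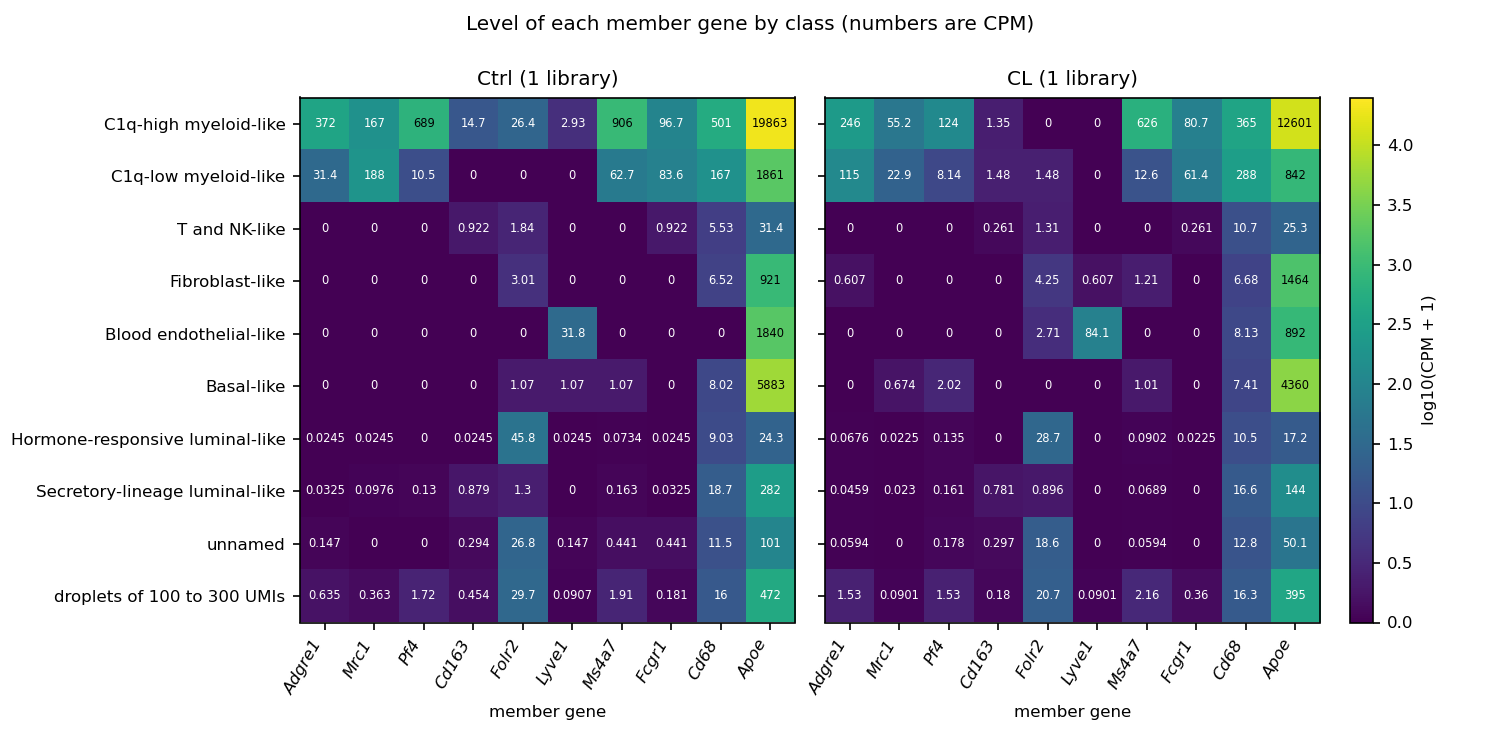
Each square gives the level of a member (columns) in a class of cells (rows) as CPM, with colour on a log10(CPM + 1) scale, for the Ctrl library on the left and the CL library on the right. The C1q-high row of Ctrl holds Pf4 at 689, Ms4a7 at 906 and Apoe at 19863 CPM, and Apoe is also bright in the basal-like row, at 5883 CPM in Ctrl and 4360 in CL.

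Over all cells the myeloid members did not move in 1 direction. Fcgr1 went from 0.547 CPM in Ctrl to 1.25 in CL (log2 ratio 1.19, 0.71 to 1.70) and Adgre1 from 1.55 to 2.99 CPM (0.95, 0.66 to 1.25). Pf4 went the other way, from 2.79 to 1.08 CPM (-1.37, -1.70 to -1.05), and Mrc1 from 0.919 to 0.656 CPM (-0.49, -0.96 to -0.01). Ms4a7 was at 3.84 and 4.27 CPM (0.15, -0.05 to 0.36), a difference within counting error. Thus Fcgr1 was higher and Pf4 lower by 2-fold or more with an interval that excludes 0, so 1 of the 10 members was called in each direction. The same rule called 3.37% of 17108 genes higher and 3.37% lower. Averaging CPM over cells, so that cells weigh equally, gave 0.62 for Adgre1, -1.25 for Mrc1 and -0.24 for Ms4a7, and the Pf4 ratio was -0.71 with doublets kept. Over the alternative settings the Fcgr1 ratio ran from 0.94 to 1.31 and the Pf4 ratio from -1.91 to -0.60. Both thus fell short of 2-fold at some settings.

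Apoe (485 to 296 CPM, log2 ratio -0.71), Folr2 (24.6 to 14.1 CPM, -0.80) and Cd68 (14.7 to 18.5 CPM, 0.33) differed beyond counting error over all cells. Since these genes lay mostly outside myeloid-like cells, their ratios are described by class further on. The sum of the members was set by Apoe and went from 534 to 340 CPM (-0.65, -0.67 to -0.63). Without Apoe it went from 49.5 to 43.6 CPM (-0.19, -0.24 to -0.13). In the droplets the sum without Apoe was 51.0 CPM in Ctrl and 43.0 in CL, close to that of the cells.

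**Figure D3:**
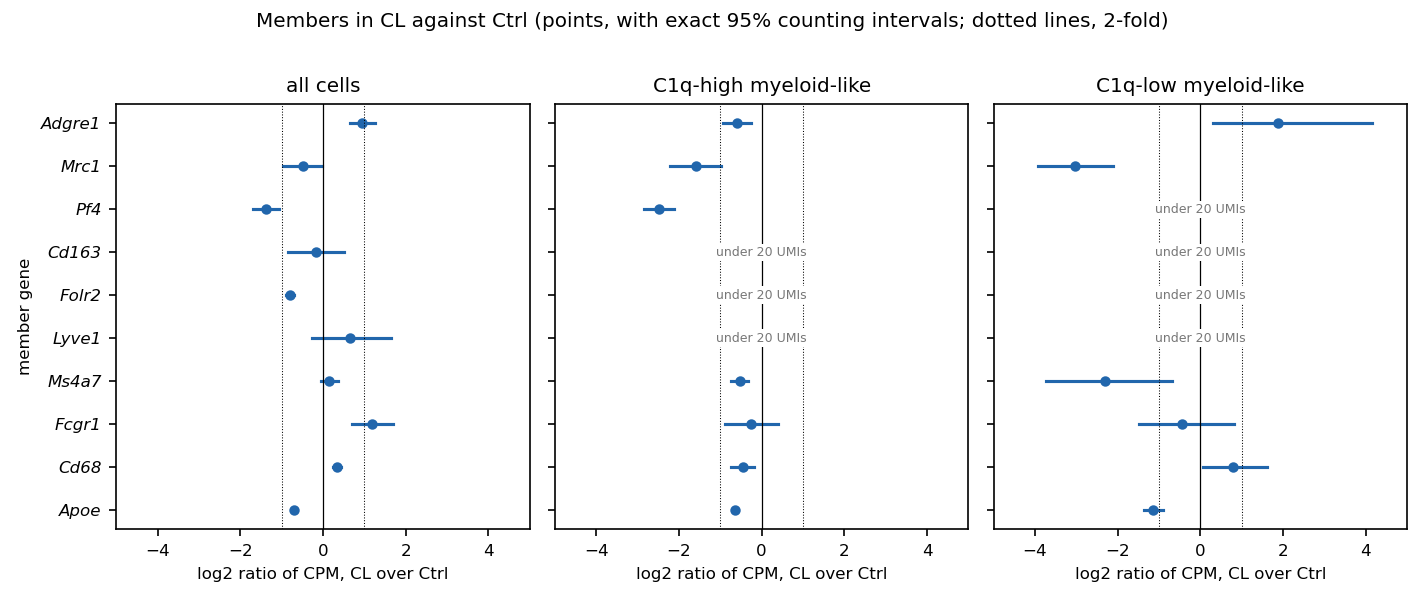
Points are log2 ratios of CPM, CL over Ctrl, for each member over all cells, in C1q-high and in C1q-low myeloid-like cells, with exact 95% counting intervals and dotted lines at 2-fold. The 7 members with at least 20 UMIs lie below 0 in C1q-high cells, Fcgr1 with an interval across 0, Pf4 at -2.48 and Mrc1 at -1.60. Over all cells Adgre1, Fcgr1 and Cd68 lie above 0, as do Ms4a7 and Lyve1 with intervals across 0.

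Within C1q-high cells the members were compared next, which asks whether such cells carried the same resident macrophage genes in both libraries. Pf4 and Mrc1 were lower in CL. Pf4 had 235 UMIs in the 41 Ctrl cells, from 0 to 53 per cell with a median of 1, and 24 cells had at least 1. In the 66 CL cells it had 92 UMIs, from 0 to 58 with a median of 0, in 16 cells. The levels were 689 and 124 CPM, a log2 ratio of -2.48 (-2.84 to -2.12). A single CL cell gave 63.0% of the Pf4 UMIs there, and without the cell with most UMIs in each library the ratio was -3.56. The per-cell ranges of the libraries overlap.

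Mrc1 followed in the same direction with fewer UMIs. It had 57 UMIs in Ctrl, from 0 to 12 per cell with a median of 0, in 18 cells, and 41 UMIs in CL, from 0 to 9 with a median of 0, in 15 cells. The levels were 167 and 55.2 CPM (-1.60, -2.21 to -0.99). Thinned to 4630 UMIs per cell, which left out 4 Ctrl and 7 CL cells, Pf4 was found in 51.4% of Ctrl cells (34.4 to 68.1) and 16.9% of CL cells (8.44 to 29.0). Mrc1 was then found in 35.1% (20.2 to 52.5) and 16.9% (8.44 to 29.0), and its 2 intervals overlap. Thinned to 5222 UMIs instead, the shares were 45.2% (27.3 to 64.0) and 22.4% (12.5 to 35.3) for Pf4 and 38.7% (21.9 to 57.8) and 10.3% (3.89 to 21.2) for Mrc1. At least 2 UMIs after thinning to 4630 were found for Pf4 in 29.7% of Ctrl and 3.39% of CL cells (log2 ratio -3.13) and for Mrc1 in 24.3% and 6.78% (-1.84). Without thinning the shares were 58.5% and 24.2% for Pf4 and 43.9% and 22.7% for Mrc1.

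Cd163, Folr2 and Lyve1 were near the limit of detection in these cells. Cd163 had 5 UMIs in 4 Ctrl cells and 1 UMI in CL (log2 ratio -3.45, -9.01 to -0.29). Folr2 had 9 UMIs in 4 Ctrl cells and 0 in CL, at least 6.53-fold lower when CL is given a floor of 3 UMIs. Lyve1 had 1 UMI in Ctrl and 0 in CL, so a difference was not detectable at this depth. These UMIs were in few cells.

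The cells were clustered on other genes, without the members and C1q, and C1q-high cells fell mostly into a group led by Mmp13 and Mmp12 (32 of them in Ctrl and 41 in CL) and a small group led by Ccl8, Ccl7 and Mgl2. The small group was singled out for its Pf4 after the values were seen. It held 8 Ctrl cells (0.135% of cells, 0.0583 to 0.266) and 1 CL cell (0.0114%, 0.00029 to 0.0635), a log2 ratio of -3.57 (-9.04 to -0.67). As it lies almost wholly in 1 library, a property of that library and a kind of cell cannot be told apart. The 8 Ctrl cells had 6 to 53 Pf4 UMIs each, with a median of 21.5, and their level was 4211 CPM, against 140 CPM in the Mmp12-led C1q-high cells of Ctrl. Every one of them had Mrc1, from 1 to 12 UMIs, at 912 CPM against 48.9 CPM. All of the 5 Cd163, 9 Folr2 and 1 Lyve1 UMIs of C1q-high cells in Ctrl were in these 8 cells. This group also held 194 of the 235 Pf4 and 42 of the 57 Mrc1 UMIs of the C1q-high cells of Ctrl. The Mmp12-led C1q-high cells of Ctrl held 40 Pf4 UMIs in 15 cells and 14 Mrc1 UMIs in 9 cells.

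The same 8 cells were not high in every member. Ms4a7 was at 217 CPM in them and at 1033 CPM in the Mmp12-led cells. Apoe was at 8313 and 21944 CPM, Cd68 at 499 and 509 CPM and Fcgr1 at 65.1 and 83.7 CPM. Adgre1 was at 586 CPM (386 to 853) and 331 CPM (268 to 405), with intervals that overlap. The high-Pf4 cells were therefore low in Ms4a7 and Apoe and alike in Cd68, within counting error.

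The 1 CL cell of the small group had 58 Pf4 UMIs, 6 of Adgre1, 4 of Ms4a7 and 32 of Apoe, and 0 of Mrc1, Cd163, Folr2 and Lyve1. Ccl8, a monocyte-attracting chemokine that led the group, had 109 UMIs in its Ctrl cells and 0 in all CL C1q-high cells. A further CL barcode with 86 Pf4, 4 Mrc1 and 13 Ms4a7 UMIs and 35 of C1q had been left out as a doublet. With doublets kept the Pf4 ratio in C1q-high cells was -1.35 (-1.65 to -1.06). Without the small group the Pf4 ratio was -1.59 and the Mrc1 ratio 0.13, so the direction for Mrc1 over the class was not kept without those cells. Within the Mmp12-led cells Mrc1 was lower in CL, as given below. By a count made after seeing the data, 8 of 41 Ctrl and 2 of 66 CL cells had at least 10 Pf4 UMIs, and 13 and 6 had both Pf4 and Mrc1.

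**Figure D4:**
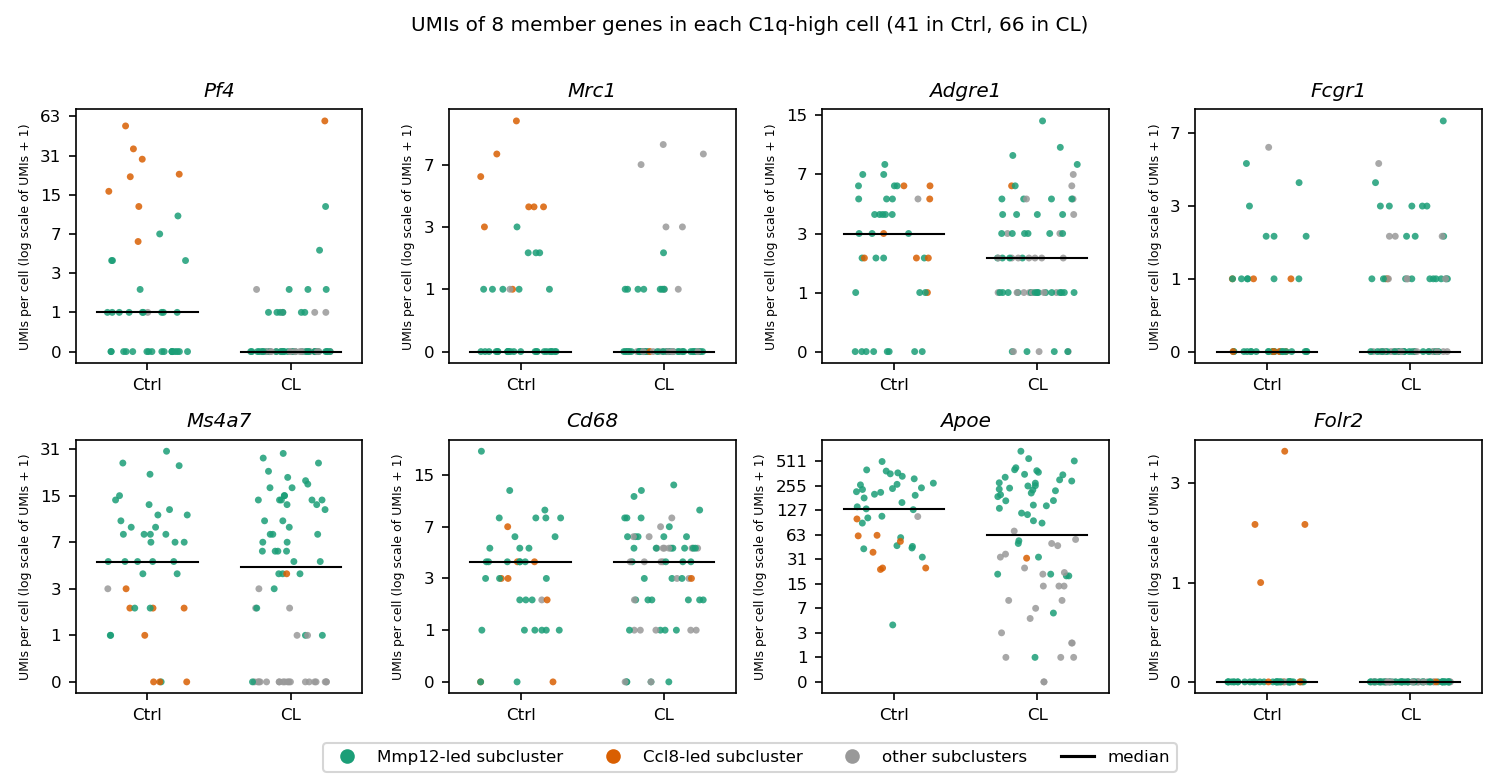
Each point is 1 C1q-high cell and gives its UMIs of a member on a log scale of UMIs + 1, for the Ctrl library (41 cells) and the CL library (66 cells), with a bar at the median and colours for the Mmp12-led, Ccl8-led and other subclusters. The 8 Ctrl cells of the Ccl8-led subcluster hold 6 to 53 Pf4 UMIs and all the Folr2 UMIs, and the grey cells of other subclusters, mostly CL, lie low in Ms4a7 and Apoe.

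The remaining members with at least 20 UMIs did not pass the 2-fold rule. Ms4a7 had 309 UMIs in Ctrl, from 0 to 30 per cell with a median of 5, and 465 in CL, from 0 to 29 with a median of 4.5 (906 and 626 CPM, -0.53, -0.74 to -0.32). Apoe ranged from 4 to 506 UMIs per Ctrl cell with a median of 132 and from 0 to 677 per CL cell with a median of 62.5 (-0.66, -0.70 to -0.61). Adgre1 ranged from 0 to 8 per Ctrl cell with a median of 3 and from 0 to 14 per CL cell with a median of 2 (372 and 246 CPM, -0.60, -0.93 to -0.26). The cells overlap throughout for these 3 genes.

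Cd68 had a median of 4 UMIs per cell in both libraries, and its levels were 501 and 365 CPM (-0.46, -0.74 to -0.17). Fcgr1 was at 96.7 and 80.7 CPM (-0.26, -0.90 to 0.40), within counting error. Together, 7 of the 10 members had at least 20 UMIs over both libraries, and of these Pf4 and Mrc1 were lower by 2-fold or more with an interval that excludes 0. Of 5011 genes held to the same rule, 3.41% were lower and 7.2% higher. The median log2 ratio of those 7 members was -0.60 and that of the 5011 genes 0.17, and the members' sum had a ratio of -0.68 (-0.73 to -0.64). The share of Csn3, a milk protein RNA that these cells should lack, relative to the droplets was 6.32% in Ctrl and 21.0% in CL. Of its 107 UMIs in CL, 41 were in 1 cell, and with free RNA subtracted at these shares the members' sum had a ratio of -0.44. That value rests on Csn3 alone. Hormone-responsive markers were at 346 CPM in Ctrl and 425 in CL, against 5604 and 5266 CPM in the droplets. Fibroblast markers were at 44.0 and 14.8 against 631 and 320 CPM, and basal markers at 630 and 45.7 against 1496 and 1488. Secretory-lineage markers, Csn3 among them, were at 202 and 698 against 3030.5 and 3209 CPM. These lists thus gave unlike differences between the libraries.

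Among the Mmp12-led cells alone, Ms4a7 was close to even, at 1033 and 914 CPM (-0.18, -0.39 to 0.04), and present in 31 of 32 Ctrl and 40 of 41 CL cells. Fcgr1 was at 83.7 and 89.0 CPM (0.09, -0.66 to 0.87). Pf4 was lower, at 140 and 58.6 CPM (-1.25, -1.99 to -0.53), as were Apoe, at 21944 and 17989 CPM (-0.29, -0.33 to -0.24), and Cd68, at 509 and 368 CPM (-0.47, -0.79 to -0.15). Adgre1 was at 331 and 249 CPM (-0.41, -0.81 to -0.01) and Mrc1 at 48.9 and 18.2 CPM from 14 and 9 UMIs (-1.42, -2.81 to -0.11). Most of the difference in Ms4a7 over the C1q-high cells was thus not present in this group.

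CL also had 24 C1q-high cells in 4 further groups, against 1 in Ctrl. These were 11 cells of a group led by Spp1, Inhba and Ly6c2, 7 of one led by Adgre4 and Ctsd, 4 of one led by S100a8 and Vcan and 2 of one led by Cd7 and Klrd1. In the 11 CL cells of the Spp1-led group Ms4a7 was at 29.4 CPM and Apoe at 1597 CPM, whereas Adgre1 was at 353 CPM, Fcgr1 at 137 CPM and Mrc1 at 137 CPM from 14 UMIs in 4 cells. In the 7 CL cells of the Adgre4-led group Mrc1 was at 174 CPM from 10 UMIs in 2 cells. Mrc1 thus lay mostly outside the Mmp12-led cells in both libraries, as these held 9 of its 41 UMIs in CL and 14 of 57 in Ctrl.

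Other macrophage genes, from a list of 26, were read beside the members. Of 18 with enough UMIs in C1q-high cells, 6 were lower in CL and 0 higher, with a median log2 ratio of -0.64. The same rule called 3.41% of 5011 genes lower and 7.2% higher. The 6 were Ccl8, Mgl2 and Clec10a, galactose-type lectins in the last 2 cases, Cbr2, Hpgd and Selenop. Ccl8 and Mgl2 also led the small group, whose 8 Ctrl cells held all 109 Ccl8 UMIs of C1q-high cells. The part of that group in the count was not tested. Selenop, a selenium carrier, went from 621 to 265 CPM (-1.23), and Mgl2 from 123 to 36.3 CPM (-1.76). The receptor Csf1r, on whose ligands macrophages depend, went from 475 to 344 CPM (-0.46), and Spi1 from 492 to 404 CPM (-0.29). Ctsd, a lysosomal protease, was at 217 and 369 CPM (0.77, 0.39 to 1.16), beyond counting error but short of the 2-fold rule. Clec4n (0.21, -0.36 to 0.81) and Aif1 (0.16, -0.12 to 0.44) were within counting error. Cd14, the lipopolysaccharide co-receptor, went from 5257 to 3202 CPM (-0.72).

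Genes of monocytes were higher in CL over the C1q-high class as a whole. Of 10, 9 had enough UMIs, and 8 were higher in CL and 0 lower, with a sum of 481 CPM in Ctrl and 3175 CPM in CL. Cell by cell that sum ran from 0 to 10142 CPM in Ctrl, with a median of 139, and from 0 to 18542 CPM in CL, with a median of 150. S100a4 went from 32.2 to 1075 CPM (5.06), Plac8 from 44.0 to 970 CPM (4.46) and Ly6c2 from 17.6 to 202 CPM (3.52), while Chil3 and Fn1 were at 0 in Ctrl. In the Mmp12-led cells alone the sum was 188 and 255 CPM, and that of the other macrophage genes 12422 and 10422 CPM. Of 10 dendritic cell genes 2 had enough UMIs, of which Ccr7 was higher (2.25) and Itgax was at 252 and 157 CPM (-0.68), and Flt3 was at 0 in both libraries.

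Of 10 genes induced by tissue dissociation, 4 were lower in CL and 0 higher, with sums of 6204 and 3522 CPM in C1q-high cells and of 6253 and 4090 CPM in the Mmp12-led cells alone. Hspa1b went from 551 to 101 CPM (-2.45), Hspa1a from 425 to 82.1 (-2.37), Dusp1 from 867 to 385 (-1.17) and Junb from 1688 to 800 (-1.08), whereas Jun was at 390 and 400 CPM (0.04). Platelet markers, asked for because platelets make Pf4, reached 5.86 CPM in Ctrl from 2 of 5 genes and 0 in CL, under the 8.16 and 9.82 CPM of the droplets, with Gp9, Itga2b and Gp1bb at 0 in both. The part of the monocyte and dissociation genes in the members' difference was not tested.

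The members were mostly at lower levels in C1q-low cells than in C1q-high cells. In CL, Cd68 had 389 UMIs over the 167 cells, from 0 to 15 per cell with a median of 2, at 288 CPM, and Adgre1 had 155, from 0 to 6 with a median of 0, at 115 CPM. Fcgr1 was at 61.4 CPM in 44 of the 167 cells. Apoe was at 842 CPM, Mrc1 at 22.9, Ms4a7 at 12.6 and Pf4 at 8.14 CPM. The 16 Ctrl cells held 3 Adgre1, 18 Mrc1, 6 Ms4a7, 8 Fcgr1, 16 Cd68, 178 Apoe and 1 Pf4 UMIs. Adgre1 was thus found in 78 of the 167 CL cells, and Ms4a7 and Pf4 in 14 and 7. Fcgr1 was found in 5 of the 16 Ctrl cells.

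Between the libraries, Adgre1 in C1q-low cells was at 31.4 CPM in Ctrl and 115 in CL (1.87, 0.30 to 4.16). Mrc1 was at 188 and 22.9 CPM (-3.04, -3.92 to -2.11), Ms4a7 at 62.7 and 12.6 (-2.32, -3.73 to -0.69) and Apoe at 1861 and 842 (-1.14, -1.37 to -0.91). Cd68 was at 167 and 288 CPM (0.78, 0.07 to 1.60) and Fcgr1 at 83.6 and 61.4 (-0.45, -1.49 to 0.81). So 1 of 6 members with enough UMIs was called higher and 3 lower, where the rule called 3.48% of 6060 genes higher and 5.46% lower. In Ctrl 11 of the 18 Mrc1 UMIs, 5 of the 6 Ms4a7 UMIs and 59 of the 178 Apoe UMIs were in 1 cell each. Without such cells in each library the Ms4a7 ratio was -0.32 and the Apoe ratio -0.72, and with the division at 20 C1q UMIs the Adgre1 ratio was -0.13.

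The C1q-low cells of both libraries were spread mostly over the same 4 groups, with 5 Ctrl and 34 CL cells in the Cd7-led, 4 and 52 in the S100a8-led, 2 and 38 in the Spp1-led, 4 and 43 in the Adgre4-led group, and 1 Ctrl cell in the Mmp12-led group. Over all 49 CL cells of the Spp1-led group Adgre1 was at 247 CPM (201 to 301) and Fcgr1 at 147 CPM (112 to 190), where C1q-high cells of CL held 246 and 80.7 CPM. Of these 49 cells 11 are C1q-high themselves, with 36 of the 99 Adgre1 UMIs. In the 36 CL cells of the Cd7-led group Adgre1 was at 27.1 CPM and Cd68 at 133 CPM (101 to 172). Cd68 was at 375 and 353 CPM in the CL cells of the S100a8-led and Adgre4-led groups. Adgre1 thus ranged from 27.1 to 247 CPM over these CL groups.

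C1q-high and C1q-low cells of the same library were then set side by side. In Ctrl 5 of 7 members with enough UMIs were higher in C1q-high cells by 2-fold or more, Pf4 (log2 ratio 6.04), Ms4a7 (3.85), Adgre1 (3.57), Apoe (3.42) and Cd68 (1.58). Mrc1 (-0.17, -0.96 to 0.68) and Fcgr1 (0.21, -0.93 to 1.53) were within counting error. In that comparison 9.56% of 2751 genes were higher and 12.3% lower. In CL 5 of 7 were higher, Ms4a7 (5.64), Pf4 (3.93), Apoe (3.90), Mrc1 (1.27) and Adgre1 (1.10), where 5.87% of 6939 genes were higher and 7.55% lower. Cd68 (0.34, 0.11 to 0.57) and Fcgr1 (0.39, -0.11 to 0.89) were not. Adgre1, Ms4a7, Pf4 and Apoe were thus called higher in C1q-high cells of both libraries, and Fcgr1 in neither.

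Correlations of members across single C1q-high cells differed between pairs and libraries. Over all 107 cells the Spearman correlation of Ms4a7 with Apoe was 0.67 (0.54 in Ctrl and 0.71 in CL), and that of Mrc1 with Pf4 was 0.35 (0.57 and 0.14). That of Pf4 with Ms4a7 was 0.05 (-0.34 in Ctrl and 0.17 in CL) and that of Pf4 with Apoe 0.02 (-0.37 and 0.01). Adgre1 had one of -0.02 with Ms4a7 over all 107 cells. These cells share 2 libraries and differ in depth, from 1408 to 33456 UMIs, so the values are descriptions.

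Outside the myeloid cells, most Folr2 UMIs lay in hormone-responsive luminal-like cells, which carry the receptors for oestrogen and progesterone. They held 88.5% of its UMIs in Ctrl and 77.5% in CL, at 45.8 CPM (43.7 to 47.9) and 28.7 CPM (27.1 to 30.3). It was found in 47.6% of these cells in Ctrl and 31.9% in CL, and in 0.939% and 0.681% of T and NK-like cells, whose medians were 4872 and 4458 UMIs against 19872 and 16568. In secretory-lineage luminal-like cells it was at 1.30 and 0.896 CPM, and in cells of unnamed clusters at 26.8 and 18.6 CPM. The droplets held it at 29.7 CPM in Ctrl and 20.7 in CL. In the 8 Ctrl cells of the Ccl8-led group it was at 195 CPM (89.3 to 371), from 9 UMIs. The hormone-responsive class as a whole was lower in CL (-0.68, -0.78 to -0.57), and its 3 clusters made it up in different proportions in each library.

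By cluster the Folr2 ratios of this class were nearer to even. The cluster led by Gpx3 held 877 Ctrl and 77 CL cells and had the highest level, 70.1 and 57.1 CPM (-0.29, -0.64 to 0.04). The cluster led by Fgb held 446 and 1507 cells, at 29.4 CPM in each (-0.00, -0.19 to 0.19). That led by Fxyd2 held 700 and 900 cells, at 28.6 and 24.5 CPM (-0.22, -0.43 to -0.01), lower in CL beyond counting error. An unnamed cluster led by Ptn, Prlr and Wfdc2, with 225 and 559 cells, was also lower in CL, at 27.7 and 18.99 CPM (-0.54, -0.81 to -0.27), as was a secretory cluster with Muc15 among its leading genes at a far lower level, 1.93 and 0.778 CPM (-1.31, -2.57 to -0.15). Beside the lower level over the class, CL had fewer cells in the Gpx3-led cluster, and the part of that in the ratio was not tested.

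**Figure D5:**
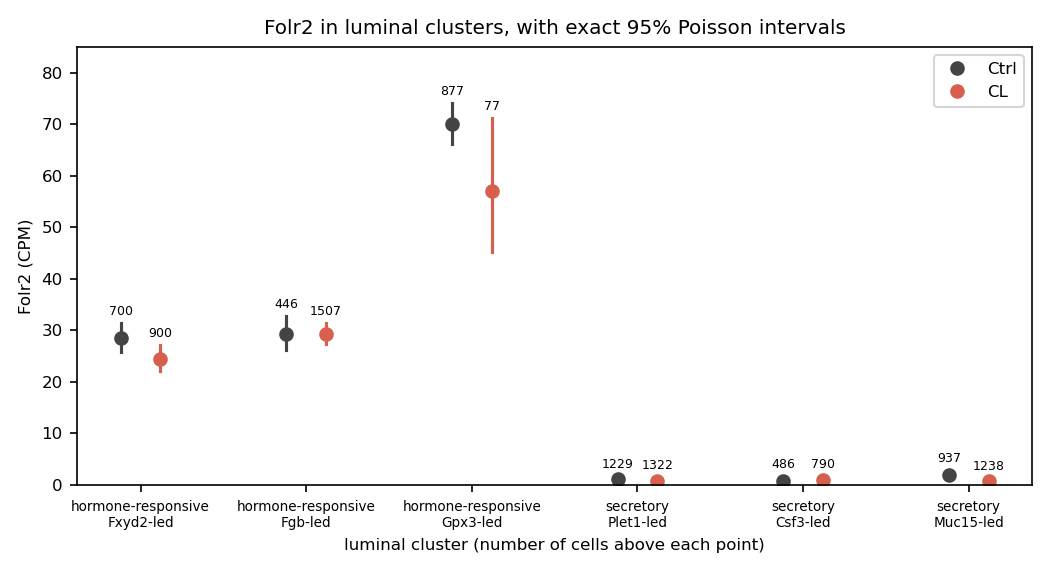
Points give the level of Folr2 (CPM) in each luminal cluster, Ctrl in black and CL in red, with exact 95% Poisson intervals and the number of cells above. All hormone-responsive clusters lie above 24 CPM in both libraries and the secretory clusters shown lie below 2 CPM, and the Gpx3-led cluster with 877 Ctrl and 77 CL cells is the highest.

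Apoe was spread over the gland. Basal-like cells held 52.8% of its UMIs in Ctrl and 37.7% in CL, at 5883 CPM (5806 to 5961) and 4360 CPM (4285 to 4435), and 405 of 405 Ctrl and 442 of 443 CL basal-like cells had it. Its ratio was -0.43 in basal-like cells (-0.46 to -0.40), -1.04 in endothelial-like cells (1840 and 892 CPM) and -0.96 in secretory-lineage cells (282 and 144 CPM), the last below the droplets. In single secretory clusters the ratio was -0.83, -0.88 and -0.71. A further secretory cluster with 559 CL cells was at 78.6 CPM in CL, and its part in the class ratio was not tested. Fibroblast-like cells went the other way, from 921 to 1464 CPM (0.67, 0.58 to 0.76). In B-like cells, which held mast cell markers in Ctrl only, Apoe had 2 UMIs in 4 Ctrl cells and 124 UMIs in 20 CL cells, of which 102 were in 1 cell (2.03, 0.15 to 5.10). Hormone-responsive cells, at 24.3 and 17.2 CPM, lay far below the droplets.

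Cd68 was at 18.7 and 16.6 CPM in secretory-lineage and at 9.03 and 10.5 CPM in hormone-responsive cells, near the 16.0 and 16.3 CPM of the droplets, and at 5.53 and 10.7 CPM in T and NK-like cells. Cd163 outside the myeloid cells was mostly in secretory-lineage cells, with 27 UMIs in 26 Ctrl cells and 34 UMIs in 33 CL cells (0.879 and 0.781 CPM, -0.17, -0.94 to 0.62). The droplets held it at 0.454 and 0.180 CPM. Its scarce UMIs were thus seldom more than 1 to a cell.

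Lyve1 came almost wholly from 1 cell in CL and less so in Ctrl. In Ctrl 8 of its 15 UMIs and in CL 31 of 32 were in 1 endothelial-like cell each. Another 4 Ctrl UMIs were in 4 basal-like cells. The endothelial-like Ctrl cell also held 31 UMIs of Ccl21a, 14 of Mmrn1, 9 of Reln and 4 of Prox1, and the CL cell 98, 22, 10 and 0. These are 4 of the 6 markers of lymphatic endothelium looked for, and 5 of the 6 had a UMI in the Ctrl cell and 4 in the CL cell. Without the cell with most UMIs in each library the log2 ratio of Lyve1 over all cells went from 0.66 to -3.24. Of the Pf4 UMIs outside myeloid-like cells in CL, 7 were in secretory-lineage, 6 in hormone-responsive, 6 in basal-like and 3 in unnamed cells.

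The genes whose levels over 18 sums of class and library were most like the summed members without Apoe were Tcirg1 (Pearson r 0.98), a subunit of the lysosomal proton pump, P2ry6 (0.93), Klra2 (0.92), Csf1r (0.92), Cd300c2 (0.91), Dnase1l3 (0.91), Adap2 (0.91), Spic (0.91), Kcnk13 (0.91) and Ocstamp (0.91), out of 15294 genes. For single members the nearest genes were Cd180 for Adgre1 (0.98), Mgl2 for Mrc1 (0.99), Ocstamp for Pf4 (0.97), C3ar1 for Ms4a7 (0.99), Spic for Fcgr1 (0.99) and M6pr for Cd68 (0.96). Outside the myeloid pattern they were Fam3b for Folr2 (0.94), Cyyr1 for Lyve1 (0.97), Gm41409 for Cd163 (0.91) and Fmnl2 for Apoe (0.83). The 18 sums share their libraries, depths and classes, so these are descriptions.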

How the data were processed

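Sorted mammary cells were profiled by droplet single-cell RNA-seq (10x Genomics, single cell 3′ v2 by the labels), 1 library per group. The authors deposited raw UMI counts, not normalized, as matrices of 32285 genes by 6794880 barcodes, with 118743318 UMIs in Ctrl and 155765480 in CL. The file header names Cell Ranger 4, and the submitters' processing notes name Cell Ranger 2.1.1 and mm10. The listed barcodes do not index the matrix columns, so as many barcodes as are listed, those with most UMIs, were taken (7217 and 10555, with at least 615 and 648 UMIs), and those with at least 500 genes and at most 15% mitochondrial UMIs were retained (6297 and 9335).

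Scrublet (scanpy 1.11.5, expected rate 6%) marked 0 cells in CL at its own threshold, so the Ctrl threshold was used for both after seeing this, which left out 368 (5.84%) and 564 (6.04%) barcodes. Cells were clustered on 2000 variable genes without the members and C1q genes (30 components, 15 neighbours, Leiden resolution 1.0) and named by at least 3 markers. The myeloid-like cluster was split once more, a step added after seeing the data. Unnamed clusters held 258 Ctrl and 602 CL cells.

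UMIs were summed per class and library. Intervals are exact at 95% (Poisson for levels, Clopper-Pearson for shares, the binomial split for ratios) and cover counting error only. A gene was called at 20 or more UMIs over both groups compared, a ratio of 2-fold or more and an interval that excludes 0. Scripts were tested on simulated data. The text names the members, listed genes by their C1q-high level, and genes of highest correlation of log2(CPM + 1) over classes with at least 10 cells. Genes of a list past the call rule, the Ccl8-led group and counts of cells by Pf4 or Mrc1 UMIs were named after their values were seen. The members and lists were chosen with earlier results of these data known. edgeR 4.0.16 gave the TMM factors of an alternative. Positions are from GENCODE M21 and promoters from RefSeq.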

Additional observations from a re-analysis of the deposited data

How the results depend on the processing

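Over 28 alternative settings, 504 recomputed values stayed within the interval of the reported value (for counts of members, within 1.5 times it), beside 76 that moved further and 2 called values that changed sign. A different sign was found for 13 values, of which 2 had a reported interval that excludes 0. These were Adgre1 in C1q-low cells with the division at 20 C1q UMIs (-0.13) and Mrc1 in C1q-high cells without the Ccl8-led subcluster (0.13), an alternative added after seeing the data. Of the other 11, those beyond the reported interval were Ms4a7 over all cells with CPM averaged over cells (-0.24), Lyve1 over all cells without the cell with most UMIs (-3.24) and the C1q-high share taken of immune-like cells (-1.18), and the C1q-low share taken so was 1.52. The log2 ratio of the members' sum over all cells was -0.68 at 200 genes, -0.68 at 1000 genes, -0.73 at 5% mitochondrial UMIs, -0.68 with doublets kept, -0.63 when CPM was averaged over cells, and -0.60 with TMM factors. In C1q-high cells it was -0.75 at 5% mitochondrial UMIs, -0.74 with doublets kept, -0.81 at Leiden resolution 2.0, -0.80 with members and C1q among the variable genes, -0.83 and -0.55 with the division at 5 and 20 C1q UMIs, -0.76 with TMM factors, -0.76 without the 100 most abundant genes in the denominator, -0.44 with free RNA subtracted, -0.76 without the Ccl8-led subcluster and -0.29 in the Mmp12-led subcluster alone. In C1q-low cells it was -0.36 at 200 genes, -0.51 with doublets kept, -1.15 at Leiden resolution 2.0, -1.21 with each cell named alone, -1.67 with the division at 20, -0.58 with TMM factors and -0.52 without the cell with most UMIs in each library. The number of members past 2-fold was 3 with the division at 20 for C1q-high against C1q-low cells in CL, and 4 without a minimum of UMIs for CL against Ctrl in C1q-high cells. The cause of these moves was not tested. The Pf4 ratio in C1q-high cells ran from -3.56 to -1.25 and the ratio of the C1q-high share from -1.18 to 0.42. With 41 and 66 C1q-high cells, the values of Cd163, Folr2 and Lyve1 rest on a few UMIs, and 1 cell gave 63.0% of the Pf4 UMIs in CL. No paired analysis was possible because each group has 1 library.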
